A study of Mus musculus with 16 samples.

Results

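The genes described here are 36 nuclear genes for subunits of the mitochondrial respiratory chain and the ATP synthase, of 18193 genes measured on Affymetrix mouse expression arrays of pancreatic islets. They were chosen by name: 21 genes of NADH dehydrogenase (complex I, in the older naming that still counts Ndufa4), 4 of succinate dehydrogenase (complex II), 5 of the cytochrome bc1 complex (complex III), the electron carrier cytochrome c (Cycs) and 5 of the ATP synthase (complex V). All 36 were found in the platform annotation. Atp5f1 is an older symbol, and its row carries the symbol Atp5pb. Each is represented by its brightest probe set over the 16 arrays, a probe set being the group of short probes that is summarised into 1 value. A gene had to have a probe set naming it alone, and no member was lost to a filter on low values, because none was applied.

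Islets for 8 arrays came from mutant mice of genotype RIPcreER; Insm1flox/lacZ, and for 8 arrays from litter-matched control mice of genotype RIPcreER; Insm1flox/+. All mice were of a mixed background drawn from CBA/J, 129/ola and C57BL/6. Insm1 is a zinc-finger repressor and activator of transcription found in endocrine cells. RIPcreER is a tamoxifen-inducible Cre recombinase driven by the rat insulin promoter, so that recombination is directed to beta cells, while the other cells of an islet keep their floxed allele. Both genotypes carried the Cre transgene and 1 floxed allele, and both received 25 mg of tamoxifen released over 21 days from 4 to 5 weeks of age. The lacZ allele was present in mutants alone, in every cell of the animal. Islets were collected at 8 to 12 weeks of age, and arrays of the 2 groups carry the same replicate numbers, 1 to 8, which are called pairs below.

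The respiratory chain sits in the inner mitochondrial membrane. Complexes I and II pass electrons from NADH and succinate to ubiquinone, complex III passes them on to cytochrome c and complex IV to oxygen, and the proton gradient that complexes I, III and IV build drives the ATP synthase. In beta cells the ATP made from glucose closes ATP-sensitive potassium channels, which depolarises the cell and starts insulin secretion. Most subunits are encoded in the nucleus and imported. Their promoters are textbook targets of nuclear respiratory factors, of which NRF1 binds a GC-rich palindrome, and the coactivator Ppargc1a raises their transcription in many tissues.

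Promoter stretches are printed for Atp5c1, the member that differed between genotypes by the test used here, for Ndufa6 and Ndufb8, which were called under some of the alternative fits, and for Cycs and Sdhb, as members with the NRF1 core. The sequences are from RefSeq on GRCm38.p6. Each runs 5′ to 3′ on the gene's own strand and ends at the base before the annotated start, and none lies inside an annotated gene. Capitals mark the NRF1 core (GCATGCGC) and the CCAAT box (CCAAT), on either strand. The Atp5c1 stretch, chr2:10080511-10080550 on the minus strand, covers the 40 bases up to the neighbouring gene Kin. The Ndufa6 stretch is chr15:82354292-82354391 and the Ndufb8 stretch chr19:44555443-44555542, both on the minus strand. The Cycs stretch is chr6:50566570-50566642 on the minus strand, and the Sdhb stretch is chr4:140961191-140961270 on the plus strand.
Atp5c1: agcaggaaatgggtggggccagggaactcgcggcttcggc
Ndufa6: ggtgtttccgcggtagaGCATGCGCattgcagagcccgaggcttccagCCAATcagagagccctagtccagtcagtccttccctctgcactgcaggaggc
Ndufb8: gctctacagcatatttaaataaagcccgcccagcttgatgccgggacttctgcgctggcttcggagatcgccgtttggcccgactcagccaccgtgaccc
Cycs: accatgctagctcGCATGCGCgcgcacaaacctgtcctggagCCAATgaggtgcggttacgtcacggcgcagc
Sdhb: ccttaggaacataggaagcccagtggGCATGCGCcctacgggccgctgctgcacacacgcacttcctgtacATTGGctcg

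RefSeq windows of 300 bases, from 250 before to 50 after a start, were at hand for 28 of the 36 genes, and some genes have several. Ndufa2, Ndufb9, Ndufs1, Sdhc, Uqcrc2, Uqcrb, Cyc1 and Atp5a1 were not among them. The NRF1 core, read on both strands, stood in 5 of the 28 (17.9%), namely Cycs, Ndufa6, Ndufa8, Sdhb and Uqcrc1, against 3.05% of 27025 genes with a window. The core began 83 bases before the start in Ndufa6, 60 before in Cycs and 54 before in Sdhb.

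Other motifs were searched in the same windows. AAGATGGC, a core of YY1 sites, stood in Atp5f1, Ndufa9, Ndufb8, Ndufs4 and Ndufs7, again 17.9% of the genes searched, against 3.19% of all. In Ndufb8 it lay downstream of the start, outside the stretch printed above. The cyclic AMP response element TGACGTCA was found in Cycs, Ndufa10 and Uqcrfs1 (10.7% against 2.03%), and the estrogen-related receptor element TCAAGGTCA in Sdhd (3.57% against 0.466%). The ETS core CCGGAAGT stood in Ndufs3 (3.57% against 4.31%), and the CCAAT box in 8 members (28.6% against 41.1%). Of the members with the NRF1 core, Ndufa6 had a difference between genotypes of 0.15, Ndufa8 of 0.11, Uqcrc1 of 0.12, Sdhb of 0.033 and Cycs of 0.028 on the log2 scale.

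Values are the deposited log2 signals, so that a difference of 1 is a doubling. The members were bright: their group means ran from 9.29 (Sdhc in mutant islets) to 13.42 (Ndufa1 in control islets), where the median of all probe sets on an array was 6.29 to 6.35.

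Of the 36 genes, 1 was called higher in the mutant islets (Atp5c1) and 0 lower, with limma over all genes and a Benjamini-Hochberg adjusted p under 0.05. Over all 18193 genes 8.76% were called, 4.10% higher and 4.66% lower. At an unadjusted p under 0.05, 6 members differed, 4 higher and 2 lower, against 21.4% of all genes. The median difference of the members was 0.035, that of all genes was −0.0058, and the members ran from −0.16 for Ndufb8 to 0.17 for Ndufa5. There were 25 members above 0 and 11 below.

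The intervals were narrow. For 35 of the 36 genes the 95% interval of the difference lay inside 1.25-fold in either direction, a band chosen with the values known. The exception was Ndufa5, whose upper bound was 0.33, or 1.26-fold. The lowest bound of any member was −0.30, for Ndufb9, which is a fall of 1.23-fold. These intervals are of the fit by genotype alone, and the band was not counted under the alternative fits. With an acinar covariate, described below, Ndufb8 and Ndufb9 lay further from 0, at −0.24 ± 0.06 and −0.25 ± 0.06 (SE). By genotype alone, an interval inside 1.25-fold was reached by 65.2% of all genes, and by 58.4% of the 3584 genes at least as bright as the dimmest member. Of those 3584 bright genes, 14.2% were called. An islet array averages over all cells of the preparation, so that fewer cells of a type and less RNA per cell cannot be told apart.

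**Figure D1:**
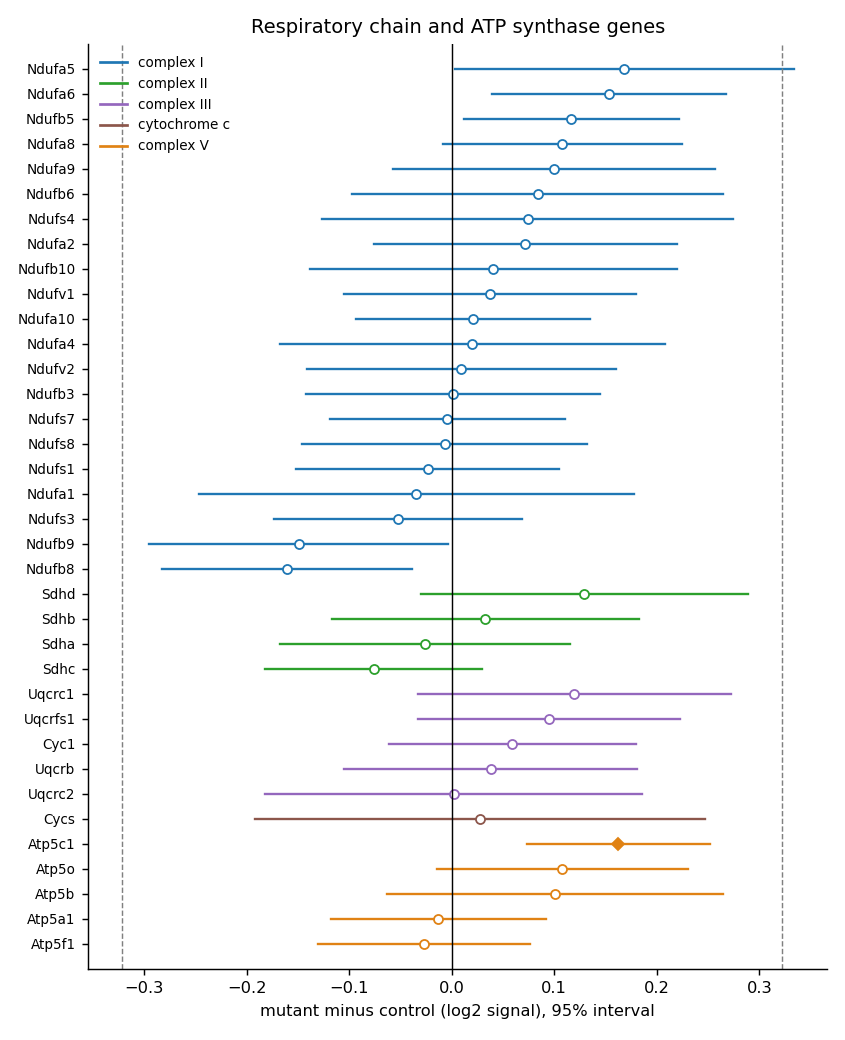
Difference between mutant and control islets in log2 signal for each of the 36 genes, with its 95% limma interval (8 arrays a group), coloured by complex. The filled diamond is Atp5c1, the called gene, and the dashed lines mark 1.25-fold, which the upper bound of Ndufa5 alone passed.

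The ATP synthase held the called gene. Atp5c1 encodes the gamma subunit, the shaft that turns inside the catalytic head. Its signal in control islets was 11.49 at the lowest, 11.66 at the median and 11.71 at the highest, and in mutant islets 11.74, 11.78 and 11.89. The groups did not overlap, which held for 1 of the 36 members and for 2.29% of all genes. The mean was 11.64 ± 0.07 (SD, n = 8) in control and 11.80 ± 0.06 (SD, n = 8) in mutant islets. The difference was 0.16 ± 0.04 (SE), or 1.12-fold, with a 95% interval of 0.07 to 0.25 and a limma adjusted p of 0.0217, and mutant islets were higher in 8 of 8 pairs.

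The Atp5c1 call held without any 1 of the 16 arrays, at adjusted p of 0.0225 to 0.045. It was lost when the mean of 18 acinar marker genes entered as a covariate (difference 0.13, adjusted p = 0.0774), with the mean of all probe sets of each gene (0.11, adjusted p = 0.306), without pairs 1 to 3 (0.15, adjusted p = 0.158), and in fits that joined the pairs with acinar and immune-cell means (0.098, adjusted p = 0.972) or with the 3′ minus 5′ signal (0.10, adjusted p = 0.721). The fits that joined the pairs with these measures gave Atp5c1 an SE of 0.14 and 0.09, against 0.04 by genotype alone. They called 9 and 238 of all 18193 genes. The immune-cell means of the mutant arrays in pairs 1 to 3 were 9.05, 7.97 and 8.87, and those of the control arrays 8.26, 7.19 and 7.32. The Atp5c1 probe set is of a kind whose probes match several transcripts. Its other probe set was dim, at a mean of 6.11 in control and 6.17 in mutant islets, and its difference of 0.07 was not called (adjusted p = 0.777 over all probe sets).

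The other ATP synthase members were not called. Atp5b, the catalytic beta subunit and among the brightest of the 36, had signals of 12.46, 12.73 and 12.84 (lowest, median and highest) in control islets and 12.55, 12.76 and 13.09 in mutant islets. The groups overlapped over most of their range, with means of 12.67 ± 0.15 and 12.77 ± 0.16 (SD, n = 8 each) and a difference of 0.10 ± 0.08 (adjusted p = 0.517). The alpha subunit Atp5a1, which alternates with beta in the catalytic head, differed by −0.013. Subunit b of the peripheral stalk, Atp5f1, differed by −0.027. The stalk's upper end, the oligomycin sensitivity-conferring protein Atp5o, differed by 0.11 and was higher in 6 of 8 pairs. The median of the 5 genes was 0.10.

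Complex I has a peripheral arm, where NADH is oxidised, and a membrane arm, where protons are pumped. None of the 6 core subunits of the peripheral arm was called, and by their brightest probe sets all 6 differed by less than 0.06 in either direction. Other probe sets of Ndufs8 ran from −0.022 to 0.10, and those of Ndufv1 differed by 0.10 and 0.095. None of these was called over all probe sets. The values that follow are those of the brightest probe sets. Ndufv1, which binds NADH and the flavin, differed by 0.037. Ndufv2, its neighbour with an iron-sulphur cluster, differed by 0.0094, and Ndufs1, which carries several clusters, by −0.023. Ndufs7 and Ndufs8, whose clusters lead to ubiquinone, differed by −0.0043 and −0.0069. Ndufs3, a core subunit without a cluster, differed by −0.052, and its 2 groups ran over nearly the same range, 11.35 to 11.69 in control and 11.34 to 11.63 in mutant islets.

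The accessory subunits surround that core and are needed for its assembly and stability. The lowest and the highest difference of the 36 genes, those of Ndufb8 and Ndufa5, were among them. Ndufb8, a membrane-arm subunit whose protein is often used as a gauge of assembled complex I, had signals of 11.20, 11.31 and 11.52 in control and 11.05, 11.19 and 11.30 in mutant islets. The groups overlapped, and mutant islets were lower in 7 of 8 pairs. The means were 11.33 ± 0.13 and 11.17 ± 0.09 (SD, n = 8 each), and the difference of −0.16 ± 0.06 was not called (adjusted p = 0.102).

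Ndufb9 and Ndufa6 are both LYR-motif proteins, which hold an acyl carrier protein in the complex, Ndufb9 in the membrane arm and Ndufa6 in the peripheral arm. Ndufb9 signals were 11.59, 11.72 and 12.00 in control and 11.39, 11.61 and 11.83 in mutant islets. The groups overlapped, yet mutant islets were lower in 8 of 8 pairs, as were 7.21% of all genes, and the means were 11.76 ± 0.15 and 11.61 ± 0.12 (SD, n = 8 each). The difference was −0.15 ± 0.07 (adjusted p = 0.219). Another Ndufb9 probe set, nearly as bright at means of 11.52 in control and 11.47 in mutant islets, differed by −0.049. A dim one, at 5.48 and 5.30, differed by −0.18. Neither was called by limma over all probe sets (adjusted p = 0.804 and 0.202). Ndufa6 signals were 11.24, 11.48 and 11.56 in control and 11.48, 11.58 and 11.74 in mutant islets. These groups overlapped too, and mutant islets were higher in 8 of 8 pairs, as were 5.79% of all genes. The means were 11.44 ± 0.11 and 11.59 ± 0.09 (SD, n = 8 each), with a difference of 0.15 ± 0.05 (adjusted p = 0.0946).

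In a fit with the replicate number as a block, Ndufa6 was called higher (adjusted p = 0.0194) beside Atp5c1 (0.0136), and Ndufb8 (0.0334) and Ndufb9 (0.0309) were called lower. That fit called 2 members higher and 2 lower, against 7.88% of all genes higher and 9.71% lower (17.6% in either direction). With the acinar covariate, Ndufb8 (−0.24, adjusted p = 0.0109) and Ndufb9 (−0.25, adjusted p = 0.0189) were called lower and no member was called higher, against 6.80% and 4.81% of all genes (11.6% in either direction). With quantile normalization, Ndufa6 (adjusted p = 0.0235) was called higher beside Atp5c1 (0.0184) and no member lower, against 4.37% and 4.77% of all genes (9.14% in either direction).

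**Figure D2:**
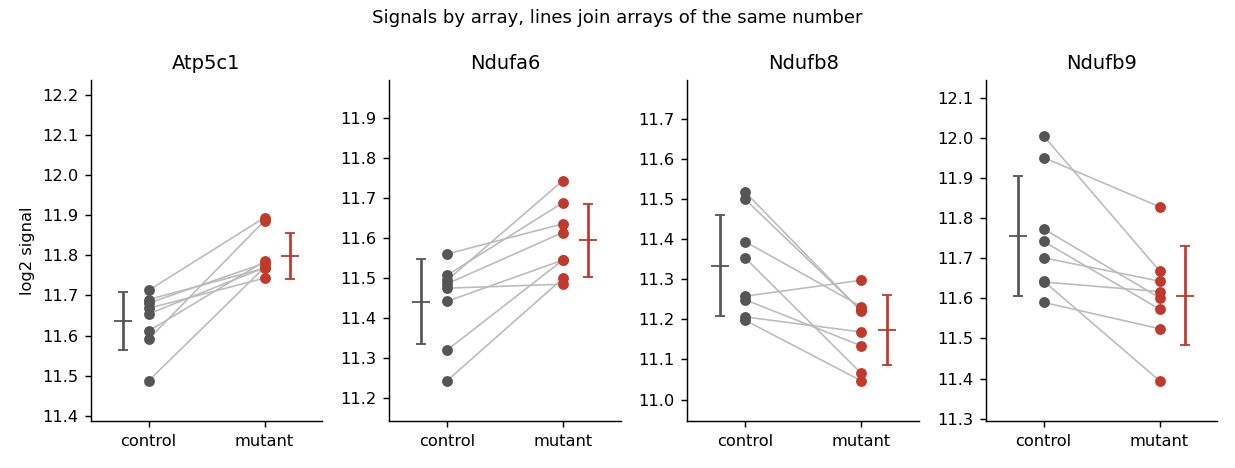
Log2 signal of Atp5c1, Ndufa6, Ndufb8 and Ndufb9 in each array, with lines joining control and mutant arrays of the same number and bars giving mean and SD (n = 8). The Atp5c1 groups do not overlap, Ndufa6 rises along all 8 lines, and Ndufb9 falls along all 8.

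Ndufa1, a small membrane-arm protein and the brightest member, had signals of 13.08, 13.36 and 13.71 in control and 13.18, 13.32 and 13.75 in mutant islets. Both groups covered the same range, with means of 13.42 ± 0.22 and 13.38 ± 0.20 (SD, n = 8 each) and a difference of −0.035 ± 0.10 (adjusted p = 0.892). Ndufa5, a peripheral-arm subunit, had the largest positive difference, 0.17 ± 0.08, and was higher in 8 of 8 pairs without being called (adjusted p = 0.223). Its signals of 10.01 to 10.44 in control and 10.15 to 10.61 in mutant islets overlapped. Ndufb5, of the membrane arm, was higher in 7 of 8 pairs by 0.12 ± 0.05 (adjusted p = 0.177).

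The remaining complex I genes were not called either. In the peripheral arm, Ndufa2 differed by 0.072, the nucleotide-binding Ndufa9 by 0.10, and Ndufs4, whose loss in mice and people causes a Leigh-like disease, by 0.074. In the membrane arm, Ndufa8 differed by 0.11, Ndufa10 by 0.020, Ndufb3 by 0.0010, Ndufb6 by 0.084 and Ndufb10 by 0.041. Ndufa4, once listed with complex I and now assigned to cytochrome c oxidase, differed by 0.020. Over the 21 genes the median difference was 0.020, with 14 above 0 and 7 below.

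Complex II, which also serves the citric acid cycle, had no called member and a median of 0.0034. The flavoprotein Sdha differed by −0.026 and the iron-sulphur protein Sdhb by 0.033. The membrane anchors differed in sign: Sdhd by 0.13 (higher in 6 of 8 pairs) and Sdhc by −0.076 (lower in 7 of 8 pairs). Neither anchor passed the test, at adjusted p of 0.355 for Sdhd and 0.43 for Sdhc.

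All 5 complex III members lay above 0, with a median of 0.059, and none was called. Uqcrb, a small subunit once named for ubiquinone binding, had signals of 12.52, 12.69 and 12.88 in control and 12.54, 12.71 and 12.96 in mutant islets. The groups coincided, with means of 12.68 ± 0.13 and 12.72 ± 0.14 (SD, n = 8 each) and a difference of 0.038 ± 0.07 (adjusted p = 0.814). The core protein Uqcrc1 differed by 0.12 and its partner Uqcrc2 by 0.0018. The catalytic subunits, the Rieske protein Uqcrfs1 and cytochrome c1 (Cyc1), differed by 0.095 and 0.059.

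Cytochrome c carries electrons from complex III to complex IV and, once released to the cytosol, triggers apoptosis. Cycs signals were 12.30, 12.68 and 12.90 in control and 12.36, 12.58 and 12.98 in mutant islets. The groups overlapped throughout, at means of 12.62 ± 0.22 and 12.65 ± 0.22 (SD, n = 8 each) and a difference of 0.028 ± 0.10 (adjusted p = 0.919).

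The 36 genes moved together from array to array within a genotype. After the mean of each group was taken off, the 630 pairs of genes had a median Pearson r of 0.62 over the 16 arrays, from −0.42 to 0.96, and 97.0% were above 0. The median over all genes, most of them dimmer than any member, was 0.02. Genes as bright as the members were not taken alone, and differences between the replicate pairs of arrays were not taken off. The genes share arrays, scaling and cell makeup, so the value is a description. With the acinar mean also taken off, the median was 0.51, and with acinar and immune-cell means taken off it was 0.54.

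Ndufv1 followed the mean of the other 35 genes most closely (r = 0.98 over 16 arrays), and Ndufb3 came next (0.94). Ndufb8, which had the lowest difference between genotypes, and Ndufa5, which had the highest, both reached 0.92. Atp5c1 and Ndufa6 were looser, at 0.64 each. Ndufa1 stood apart at 0.17, followed by Sdhc at 0.40 and Ndufa10 at 0.50.

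The arrays that were low were low for nearly every member. All 36 genes lay below their group mean in control 2, 34 in control 3, 33 in control 1, 34 in mutant 1 and 33 in mutant 2. The high arrays were control 6, with 34 genes above their group mean, control 4 and control 8, with 33 each, and mutant 5, with 34.

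**Figure D3:**
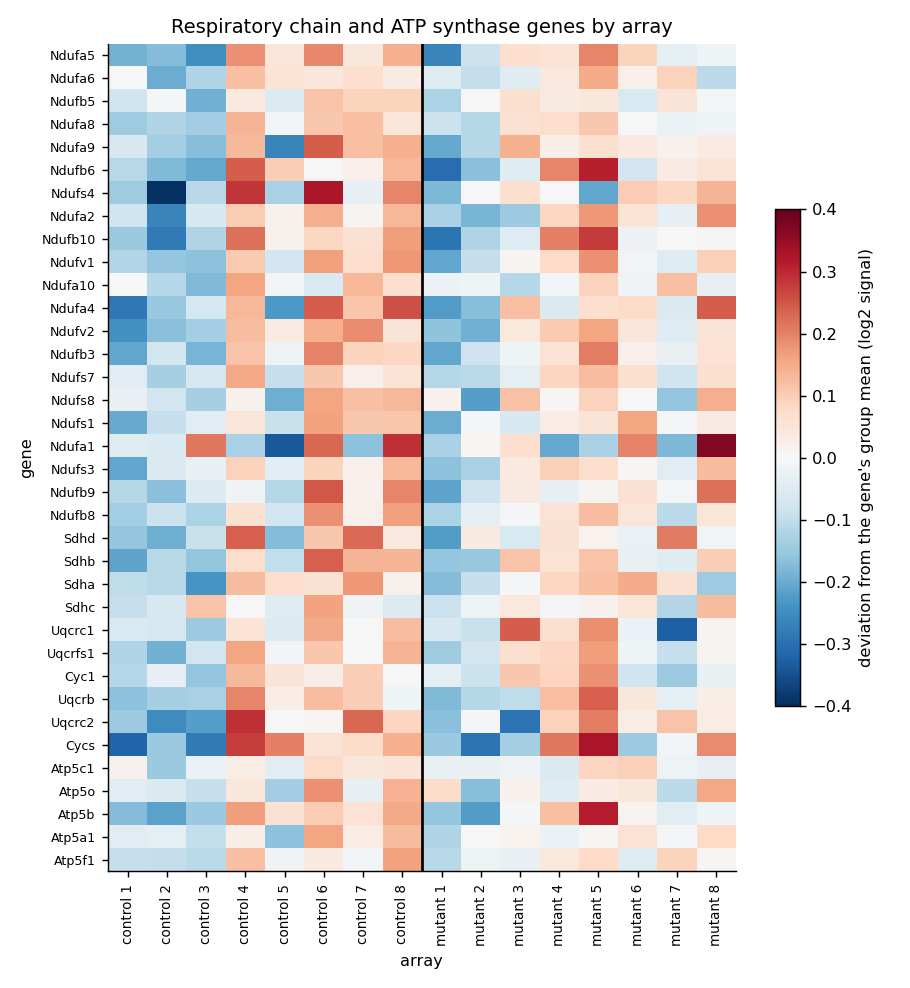
Deviation of each of the 36 genes (vertical) from its group mean in log2 signal, in each of the 16 arrays (horizontal). Columns are mostly of one colour: control 2 is below the mean for all 36 genes and mutant 5 is above it for 34, while Ndufa1 departs from the other genes.

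The mean of the 36 genes per array was 11.17 to 11.44 in control islets (mean 11.31 ± 0.12, SD, n = 8) and 11.20 to 11.46 in mutant islets (11.34 ± 0.08, SD, n = 8). The ranges overlapped almost fully. Within pairs the mutant array was higher in 4 and lower in 4, from −0.069 in pair 6 to 0.20 in pair 5. In pair 5, 33 of the 36 genes were higher in the mutant array, and in pair 6, 27 were lower.

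Other measures of the preparations differed between the genotypes. The mean of the 18 acinar markers, genes of digestive enzymes from exocrine tissue, was 11.34 to 13.98 in control and 8.11 to 13.53 in mutant islets, and lower in the mutant array of 8 of 8 pairs. Of the 18 genes, all 18 lay below 0, with 0 called by genotype alone and 17 called lower with the replicate block. No acinar marker mean was near the array medians. The arrays with the highest acinar means (control 2, control 1 and mutant 1, at 13.98, 13.80 and 13.53) had member means of 11.17, 11.18 and 11.20. Control 3 had a member mean of 11.19 at an acinar mean of 12.52. Mutant 6, with the lowest acinar mean (8.11), had a member mean of 11.37. The highest member mean, 11.46, was that of mutant 5, at an acinar mean of 10.99. The mean of 17 immune-cell markers was 7.13 to 8.26 in control and 7.12 to 9.05 in mutant islets, higher in the mutant array of 5 pairs. The 3′ minus 5′ signal of the array's own Gapdh and beta-actin controls, a gauge of RNA integrity, was 0.333 to 0.570 in control and 0.280 to 0.465 in mutant islets, and lower in the mutant array of 8 of 8 pairs.

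With the acinar covariate the median difference of the 36 genes was −0.053, with 23 below 0 and 13 above, and without pairs 1 to 3 it was −0.0021. The part of acinar tissue, immune cells and RNA integrity in the differences between genotypes was not tested beyond these fits.

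Markers of other islet and duct cells also differed between the genotypes. The mean of 6 alpha-cell markers was 10.63 to 10.99 in control and 11.15 to 11.64 in mutant islets, without overlap, and 3 of the 6 were called higher and 0 lower (median 0.37). The mean of 6 delta-cell and PP-cell markers was 11.11 to 11.52 in control and 11.38 to 11.61 in mutant islets, with 1 called higher and 0 lower. The mean of 7 duct markers was 8.25 to 8.55 in control and 8.02 to 8.32 in mutant islets, with 0 called higher and 1 lower. For 15 endothelial and stromal markers it was 8.32 to 8.71 in control and 8.20 to 8.86 in mutant islets, with 2 called higher and 1 lower. Their part in the values of the 36 genes was not tested.

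**Figure D4:**
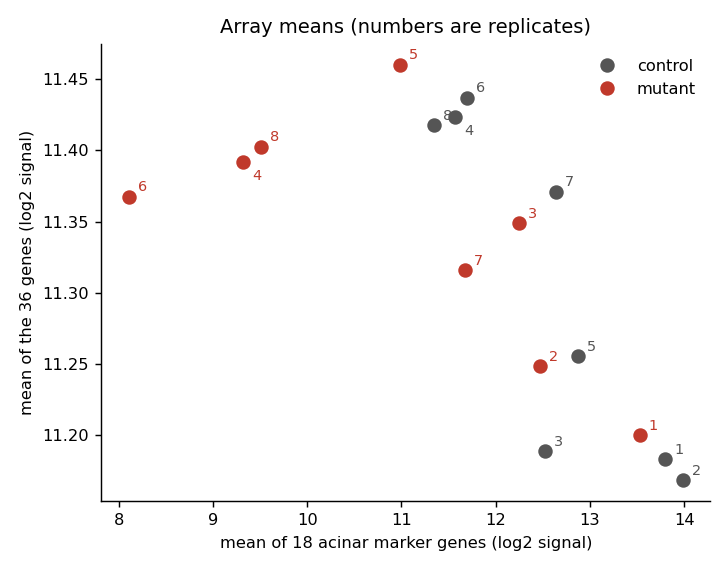
Mean log2 signal of the 36 genes (vertical) against the mean of 18 acinar marker genes (horizontal), 1 point per array, numbered by replicate. Control 2, control 1 and mutant 1 lie at the lower right, at acinar means of 13.98, 13.80 and 13.53. Control 3 is also low, at a member mean of 11.19 and an acinar mean of 12.52. Mutant 6 is at the far left at 8.11, with a member mean of 11.37.

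The rest of the same machinery was read from lists of the remaining subunits. Of 14 other complex I subunits measured, none was called in either direction (median 0.061); the lowest p was that of Ndufv3, a peripheral-arm subunit with tissue-specific isoforms, at −0.23 ± 0.08 (adjusted p = 0.0697, and 0.00317 with the replicate block). Of 4 other complex III subunits, the hinge protein Uqcrh was called higher. Its signals were 11.47, 11.66 and 11.75 in control and 11.73, 11.82 and 12.00 in mutant islets, which overlap slightly, and the difference was 0.21 ± 0.05 (adjusted p = 0.0142). Of 11 other ATP synthase genes, none was called (median 0.055). With the replicate block, Ndufb11, Ndufc2, Atp5g2 and the inhibitor Atpif1 were called higher, and Ndufv3 lower. That fit called 7.88% of all genes higher and 9.71% lower.

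Of 15 cytochrome c oxidase subunits, 1 was called in each direction. Cox4i1, the common isoform of subunit 4, had signals of 11.97 to 12.25 in control and 12.25 to 12.43 in mutant islets, which overlapped by less than 0.01, and a difference of 0.18 ± 0.05 (adjusted p = 0.0176). Cox6a2, an isoform best known from heart and skeletal muscle, had signals of 9.84, 10.71 and 11.99 in control and 7.99, 8.98 and 10.11 in mutant islets. It was lower in 8 of 8 pairs, by −1.97 ± 0.30 or 3.92-fold (adjusted p = 0.000449), and by −1.70 with the acinar covariate (adjusted p = 0.00326). The calls of Uqcrh and Cox4i1 were lost with that covariate (adjusted p = 0.056 and 0.0578) and without pairs 1 to 3 (0.0668 and 0.154).

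Of the 13 subunits encoded in mitochondrial DNA, mt-Nd5, a proton-pumping core subunit of complex I, was the 1 measured. Its signals were 13.95, 14.10 and 14.25 in control and 13.52, 13.79 and 14.09 in mutant islets, lower in 7 of 8 pairs, by −0.31 ± 0.08 (adjusted p = 0.0252). The call was lost without mutant 2, control 4 or control 7 in turn, at adjusted p of at most 0.0546, and when pairs 1 to 3 were left out (−0.20, adjusted p = 0.186). With the acinar covariate the difference was −0.42 (adjusted p = 0.00268).

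Assembly factors insert cofactors and join subunits without staying in the finished complex. Of 33 measured, 1 was called higher and 3 lower, with a median of −0.058. With the replicate block 1 was called higher and 7 lower, against 7.88% of all genes higher and 9.71% lower. With the acinar covariate 0 were called higher and 5 lower, against 4.81% and 6.80% of all genes. Ndufaf2, a late chaperone of complex I, differed by 0.29 (adjusted p = 0.0439, and 0.202 with the acinar covariate). The lower ones were Atpaf1, a chaperone of the ATP synthase beta subunit, at −0.28 (adjusted p = 0.0189), Sco2, a copper chaperone of cytochrome c oxidase, at −0.22 (adjusted p = 0.0305, and 0.0985 with the acinar covariate), and Ndufaf6, a complex I factor, at −0.36 (adjusted p = 0.0424). Leaving out 1 array ended the call of Ndufaf2 for 12 of the 16 arrays, of Ndufaf6 for 13 and of Sco2 for 8, and the call of Atpaf1 for none, with adjusted p up to 0.0831, 0.0835, 0.063 and 0.0407. Atpaf1 and Sco2 were not called when pairs 1 to 3 were left out (adjusted p = 0.0683 and 0.218).

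Of 17 regulators of mitochondrial biogenesis, none was called (median 0.052). Ppargc1a had the lowest p, with signals of 5.05, 6.14 and 7.27 in control and 6.29, 7.27 and 8.05 in mutant islets and a difference of 1.04 ± 0.33 (adjusted p = 0.0627, and 0.0207 with the replicate block). Of 13 citric acid cycle enzymes, citrate synthase (Cs), which makes the cycle's first intermediate, was called higher by 0.15 ± 0.05 (adjusted p = 0.0451, and 0.0943 with the acinar covariate), and lost the call without any 1 of 13 arrays in turn (adjusted p up to 0.0858).

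In the same arrays, 8 of 13 genes of the mature beta cell were called lower and 1 higher, with a median of −0.34. Trpm5, a cation channel, differed by −2.75 (adjusted p = 4.95e-06), the peptide hormone Ucn3 by −1.37 (adjusted p = 1.79e-05) and the incretin receptor Glp1r by −1.08 (adjusted p = 0.000125). The potassium channel subunit Abcc8 was the gene called higher, at 0.22 (adjusted p = 0.0404), and lost that call with the acinar covariate (adjusted p = 0.13). These differences are wider than any of the 36, whose largest was 0.17. The beta-cell hormone gene Ins2 lay at 15.34 to 15.36 in control and 15.35 to 15.39 in mutant islets, near the top of the scale in every array. Insm1 itself was 10.94 to 11.60 in control and 10.71 to 11.30 in mutant islets, a difference of −0.25 ± 0.11 (adjusted p = 0.182), lower in 5 of 8 pairs. The Insm1 difference turned to 0.041 without pairs 1 to 3, to 0.20 with the block and both cell means, and to 0.033 with the block and the 3′ minus 5′ signal, at adjusted p of 0.873, 0.931 and 0.982. Where its probes lie relative to the deleted part was not given, so this does not check the genotypes.

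**Figure D5:**
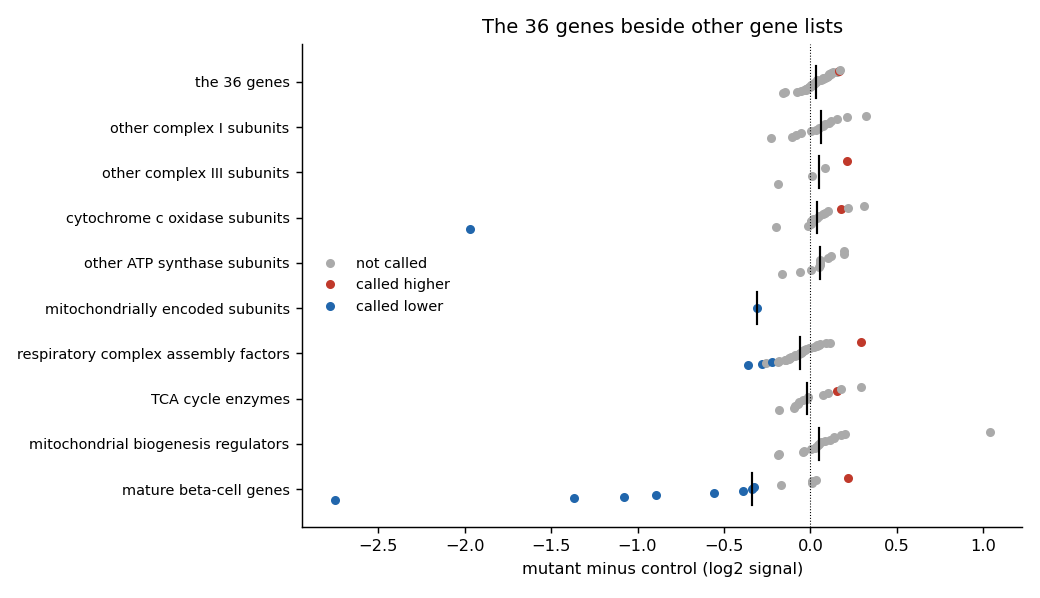
Difference between mutant and control islets in log2 signal for each gene of the 36 and of the other lists, with a black bar at the median of each list and colour for called genes. The 36 genes lie between −0.16 and 0.17, while Cox6a2 is at −1.97 among the cytochrome c oxidase subunits and Trpm5 at −2.75 among the mature beta-cell genes.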

How the data were processed

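Total RNA from islets was amplified and labelled with biotin by a 3′ IVT kit, per the labels' protocols, and hybridised to 1 array per preparation. The authors deposited 1 log2 value per probe set. How it was background-corrected and normalized is not given in the sources used here, and the log base was read from the range of the values (highest 15.39). No further scaling was applied. Of 45101 probe sets, 64 were array controls, 34945 named 1 gene, 932 several and 9160 none. Symbols were updated through RefSeq for 34741.

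Over all 18193 genes, limma (version 3.58.1, R version 4.3.3) compared the genotypes by lmFit and eBayes with a variance trend. These steps were tested on simulated data whose genes and arrays were independent. Such data lack the pairs described below, so they do not show how the fit does with paired arrays. Genotype was the only term, tests were two-sided, and p-values were adjusted by Benjamini-Hochberg. Members, lists and alternatives were chosen with earlier results of these data known. Values are given in full for called members, the 4 brightest, members whose probe sets disagree in their call and those called under the block. From each other list, up to 3 called genes in each direction are named, or the gene with the lowest p. Ndufb11, Ndufc2, Atp5g2 and Atpif1 fall outside this rule and were named after their values were seen.

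Arrays of the same number deviated together from their group means, with correlations of 0.237 to 0.735 (median 0.466) against −0.0978 between different numbers, so the numbers were taken to pair the arrays. The main fit leaves these pairs out, so that spread between pairs enters its SEs, intervals and p-values. With the replicate block the SE was smaller for all 36 genes. The number of arrays limits the precision, and p-values measure the spread between these 16 preparations.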

Additional observations from a re-analysis of the deposited data

How the results depend on the processing

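The median difference of the 36 genes stayed within 0.103, the spread of their mean within groups, of the reported 0.035 under each alternative. That margin is wider than the median itself, so it takes in a median of the opposite sign. The median ran from −0.056 (replicate block with 3′ minus 5′ signal) to 0.065 (immune-cell mean as covariate). Its sign turned with the former, with the acinar covariate (−0.053) and without pairs 1 to 3 (−0.0021). Against 1 member called higher, 2 were called with the replicate block and 2 with quantile normalization. None was called higher (0) with the mean of all probe sets, with the acinar covariate, with the block joined to acinar and immune-cell means or to the 3′ minus 5′ signal, and without pairs 1 to 3. Against 0 called lower, 2 were called with the block and 2 with the acinar covariate. At an unadjusted p under 0.05, 4 members were higher and 2 lower in limma. Leaving out each array in turn gave 1 called higher, 0 lower and medians of 0.0089 to 0.059. Over all genes, calls numbered 1594 as reported, 3200 with the block, 828 without pairs 1 to 3, 238 with the block and the 3′ minus 5′ signal, and 9 with the block and both cell means. The called fall of Atpaf1 became a difference of 0.074 (adjusted p = 0.984) in that last fit, and the cause was not tested.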

Other observations

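Of the 36 genes, 21 had more than 1 probe set, which gave 35 further probe sets beside the brightest. None of these was called over all probe sets, 4 had an unadjusted p under 0.05 in limma, and their differences ran from −0.24 to 0.36 in log2 signal. In 22 the sign was that of the brightest probe set of the gene, and in 13 it was the opposite. The lowest and highest differences were of dim probe sets, for Ndufb8 (means 6.97 in control and 6.73 in mutant islets) and Sdha (4.61 and 4.97). The further Sdhc probe set was about as bright as the one used, at 9.27 and 9.04. It differed by −0.23 (limma adjusted p = 0.173 over all probe sets), against −0.076 for the one used.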
